A study of Mus musculus with 6 samples.

Results

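The genes described here are 9 feedback inhibitors of receptor tyrosine kinase signalling, namely the phosphatases Dusp1, Dusp4, Dusp5 and Dusp6, the Sprouty genes Spry1, Spry2 and Spry4, and the Sprouty relatives Spred1 and Spred2. They were chosen by symbol for this function, and in part because Dusp4 and Dusp5 vary strongly between arrays, so the variation of these 2 genes is given as a description with no test. All probe sets annotated to 1 of the 9 symbols were taken, which gave 9 of 18193 genes and 24 of the 45101 probe sets on the array. An intensity filter, which kept the upper 50% of probe sets by mean level, passed 17 of the 24, and each of the 9 genes had at least 1 probe set above it. The passing probe set with the highest mean level stands for the gene unless another is named.

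The arrays measured total RNA of primary mouse embryonic fibroblasts that were homozygous for a deletion of exon 2 of Cas (Cas exon 2∆/∆), heterozygous (Cas exon 2+/∆) or wild type (Cas exon 2+/+), with 2 arrays per genotype. Cas (p130Cas, gene symbol Bcar1) is a docking protein of integrin adhesions that Src-family kinases phosphorylate, and the exon encodes its SH3 domain. The strain is labelled B6 for all arrays but wild type 1, which carries no strain label. All cultures came from embryos at 12.5 days post coitum out of heterozygote intercrosses, from the body left after the head and inner organs had been removed, and were grown in medium with 10% fetal calf serum. Each genotype was represented by 2 embryos, so the errors reflect how embryos and cultures of a genotype differ, and the number of arrays limits the precision. A culture is a mixture, and fewer cells of a type cannot be told apart from less RNA per cell.

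ERK is the last kinase of a relay that runs from growth factor receptors and integrins through Ras, Raf and MEK, and it enters the nucleus to switch on early genes such as Fos and Egr1. The same signal induces its own brakes. Dual specificity phosphatases remove the activating phosphates of MAP kinases, with Dusp5 acting on ERK in the nucleus, Dusp6 on ERK in the cytoplasm, and Dusp1 and Dusp4 in the nucleus on ERK, JNK and p38. Sprouty proteins act upstream, between the receptor and Raf, and Spred proteins bind the Ras inactivator neurofibromin. In fibroblasts, serum and growth factors are known inducers of these brakes, and their transcripts are often read as a sign of recent pathway activity.

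The promoters of Dusp5, Dusp1 and Spred2 are shown because these 3 genes were high on the same arrays (values below) and their windows held at least 1 of the motifs searched. Each line gives the 250 bases before the RefSeq start (GRCm38.p6), 5′ to 3′ on the strand of the gene, with motif matches in capitals. The motifs were TGACGT, the core bound by CREB and ATF factors, TGANTCA, bound by AP-1, CCGGAA, a core of ETS sites, and the CArG box of serum response factor, each searched on both strands.
Dusp5 (chr19:53528895-53529144, plus strand): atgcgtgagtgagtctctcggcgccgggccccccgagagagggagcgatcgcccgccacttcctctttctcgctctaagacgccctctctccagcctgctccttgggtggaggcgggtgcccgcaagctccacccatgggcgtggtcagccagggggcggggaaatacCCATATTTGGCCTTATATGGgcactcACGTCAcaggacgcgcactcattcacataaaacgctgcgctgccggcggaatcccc
Dusp1 (chr17:26508473-26508722, minus strand): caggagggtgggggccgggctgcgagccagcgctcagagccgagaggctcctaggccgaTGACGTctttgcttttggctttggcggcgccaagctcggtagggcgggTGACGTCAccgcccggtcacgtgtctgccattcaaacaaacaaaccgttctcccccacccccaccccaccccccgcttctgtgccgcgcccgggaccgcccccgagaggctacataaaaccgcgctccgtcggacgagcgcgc
Spred2 (chr11:19924192-19924441, plus strand): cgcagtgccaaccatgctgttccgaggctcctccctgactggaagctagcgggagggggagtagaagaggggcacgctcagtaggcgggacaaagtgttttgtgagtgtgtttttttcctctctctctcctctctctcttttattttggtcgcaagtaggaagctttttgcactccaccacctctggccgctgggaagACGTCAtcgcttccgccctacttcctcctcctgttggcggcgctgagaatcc
The Dusp5 window held 2 adjoining CArG boxes, CCATATTTGG and CCTTATATGG, which start at -82 and -72 relative to the start site, and TGACGT on the other strand at -56. A CArG box lay in 1.47% of the 32851 promoter windows of the genome table. In the Dusp1 window, TGACGT was found at -191 and -143, and the second of these overlapped its own reverse complement at -141 within TGACGTCA. Spred2 had 1 match to TGACGT, on the other strand at -52, and 6.47% of all windows held this motif. Neither TGANTCA (6.75% of all windows) nor CCGGAA (12% of all windows) was matched in any of the member windows searched. RefSeq windows of Dusp6, Spry1, Spry2 and Spred1 were searched too and held none of these letter strings. Of these, Dusp6 and Spry2 were also high on the arrays on which the 3 genes shown were high. No window was available here for Dusp4 or Spry4. A match is a description of the sequence, and binding was not measured here.

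Levels are log2 intensities after quantile normalization, with a small constant of 1.78 added before the logarithm, so that fold changes of dim probe sets are understated. The targeted gene was checked first. Bcar1 lay at 8.08 and 8.43 in homozygotes, 8.19 and 8.32 in heterozygotes, against 9.37 and 8.42 in wild type, so wild type 1 was the highest array and the other 5 were close together. Where these probe sets lie with respect to the deleted exon is unknown here, and so they are no check of the deletion. The embryos also differed in sex-linked genes. Xist, made by the inactive X chromosome, was at 3.70 and 5.31 in homozygotes, 10.27 and 10.29 in heterozygotes, against 8.82 and 4.23 in wild type, and the Y-linked gene Eif2s3y was low where Xist was high. Embryo sex and genotype therefore cannot be told apart between homozygotes and heterozygotes. All 12 fibroblast markers were above the filter. Median deposited intensities of the 6 arrays lay between 21.9 and 27.3.

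Dusp5 varied most among the 9 genes, and it did so within each genotype. It had deposited intensities of 92.2 and 18.2 in homozygotes, 7.64 and 108.1 in heterozygotes, against 240.5 and 5.19 in wild type. Each genotype thus held 1 array with clear signal and 1 below the median intensity of its own array. On the log2 scale Dusp5 lay at 6.49 and 4.47 in homozygotes, 3.15 and 6.57 in heterozygotes, against 7.89 and 2.89 in wild type, and the 3 genotypes overlapped. Its range over the 6 arrays was 5.00 log2 units, as large as or larger than that of 99.85% of the 22519 tested probe sets, whose median range was 0.77. The range depends on how dim values are treated, and it was 3.54 with a constant of 16. Only 2.15% of the sum of squares of Dusp5 lay between genotypes, where the median gene above the filter had 34.1%.

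Dusp4 showed another profile, with 1 culture standing above the rest. Its deposited intensities were 58.3 and 96.1 in homozygotes, 35.7 and 71.7 in heterozygotes, against 333.3 and 56.5 in wild type. In log2 units it lay at 5.80 and 6.72 in homozygotes, 5.20 and 6.0 in heterozygotes, against 8.33 and 6.0 in wild type. Wild type 1 was high, and wild type 2 lay 2.33 lower, amid the arrays of the other genotypes. The range was 3.13, and it was 1.51 without wild type 1, so it rests in large part on that array. Heterozygotes averaged 5.60 ± 0.57 and wild type 7.17 ± 1.65 (log2 intensity, SD, n = 2), a difference of -1.57 that was -0.40 without wild type 1 and -2.73 without wild type 2.

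Dusp1 is a classical immediate early gene of serum-stimulated fibroblasts, and it was high on the same 3 arrays as Dusp5. It lay at 9.52 and 8.54 in homozygotes, 8.23 and 9.50 in heterozygotes, against 10.33 and 8.41 in wild type. Homozygote 1, heterozygote 2 and wild type 1 were high, and the other array of each genotype was low. Deposited intensities showed the same, with 694.4 and 354.3 in homozygotes, 290.4 and 809.4 in heterozygotes, against 1427 and 308.4 in wild type, so that the highest was 4.91 times the lowest. Arrays of 1 genotype differed by 0.97 in homozygotes, by 1.27 in heterozygotes and by 1.91 in wild type (log2 units), while homozygotes differed from the mean of heterozygotes and wild type by -0.09 (SE 0.63).

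Dusp6, whose transcript is a common readout of FGF and ERK activity, had the same 3 high arrays and a smaller range. It lay at 7.62 and 7.27 in homozygotes, 6.53 and 7.52 in heterozygotes, against 8.09 and 6.87 in wild type. Heterozygote 1 was the lowest array, and the genotypes overlapped. Its range of 1.57 was as large as or larger than that of 88.8% of tested probe sets.

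**Figure D1:**
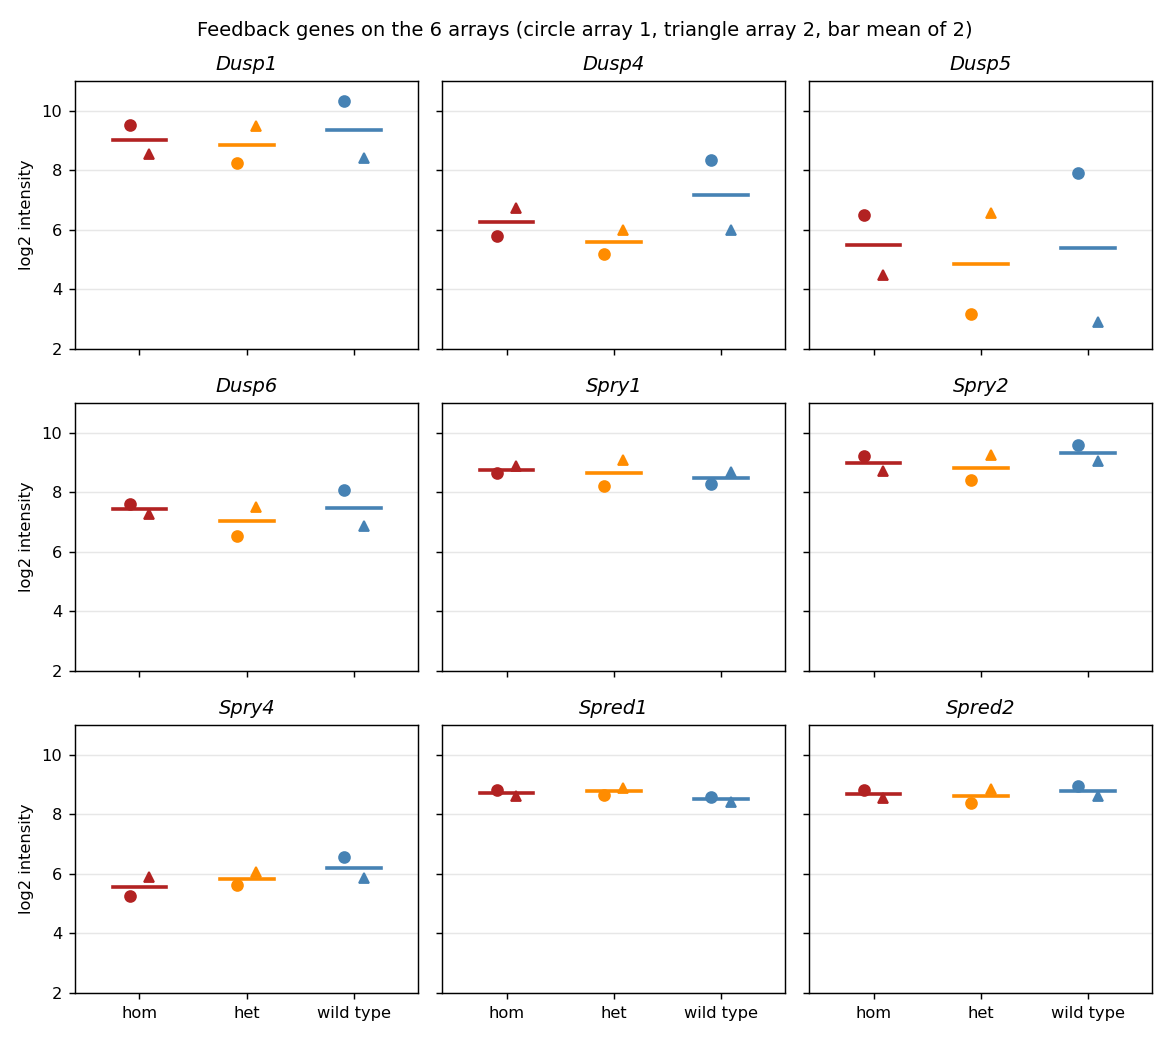
Log2 intensity (vertical axis) of the 9 feedback genes in homozygotes (hom), heterozygotes (het) and wild type, 2 arrays each. Circles are array 1, triangles array 2 and bars the mean of 2. Dusp5 spans 2.89 to 7.89, with 1 high and 1 low array in each genotype, whereas Spred1 stays between 8.41 and 8.89.

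Among the Sprouty genes, Spry2 was high on the arrays on which Dusp5 was high, and Spry1 was not. Spry2 lay at 9.22 and 8.72 in homozygotes, 8.43 and 9.24 in heterozygotes, against 9.58 and 9.06 in wild type, again with homozygote 1, heterozygote 2 and wild type 1 highest. Its second probe set was below the filter (mean 3.80) and had another order, with heterozygote 1 highest at 4.81. Spry1 lay at 8.66 and 8.87 in homozygotes, 8.23 and 9.08 in heterozygotes, against 8.27 and 8.69 in wild type. Wild type 1, the highest array for Spry2, was among the 2 lowest for Spry1.

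Spry4 had 4 probe sets, of which 2 passed the filter. The brighter lay at 5.26 and 5.88 in homozygotes, 5.64 and 6.05 in heterozygotes, against 6.56 and 5.86 in wild type, with wild type 1 highest as for Dusp4. The other passing probe set lay between 5.19 and 5.90 with heterozygote 1 highest, so the 2 disagreed on the order of the arrays. Both remaining Spry4 probe sets averaged 3.52 and 2.81, and the first of these was highest in wild type 1 (4.95) and lowest in heterozygote 1 (1.66).

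The Spred genes varied least among the 9. Spred2 lay at 8.81 and 8.54 in homozygotes, 8.40 and 8.86 in heterozygotes, against 8.95 and 8.61 in wild type. Its 3 high arrays were those of Dusp5, within a range of 0.55. A second Spred2 probe set, with levels between 6.37 and 7.10, had the same 3 arrays highest, and another (4.63 to 6.06) was lowest in homozygote 1. Spred1 lay at 8.84 and 8.63 in homozygotes, 8.66 and 8.89 in heterozygotes, against 8.60 and 8.41 in wild type, a range of 0.48. Of 8 Spred1 probe sets, 6 passed the filter. Their differences between heterozygotes and wild type ran from 0.04 to 0.82, and the probe set at 0.82 lay at 6.79 and 6.34 in homozygotes, 6.69 and 6.72 in heterozygotes, against 5.79 and 5.99 in wild type.

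**Figure D2:**
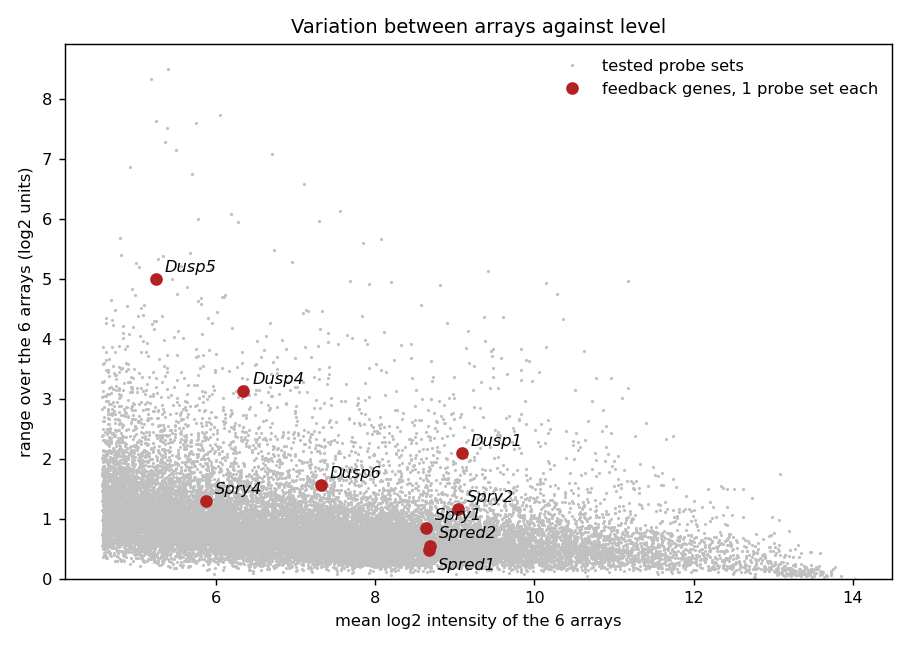
Range over the 6 arrays (vertical axis, log2 units) against mean log2 intensity (horizontal axis) for the 22519 tested probe sets (grey) and the 9 feedback genes (red, 1 probe set each). Dusp5 (5.00), Dusp4 (3.13) and Dusp1 (2.10) lie high in the cloud, and Spred1 (0.48) and Spred2 (0.55) lie in its lower part.

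Across the set, 5 of the 9 genes (Dusp1, Dusp5, Dusp6, Spry2 and Spred2) had homozygote 1, heterozygote 2 and wild type 1 as their 3 highest arrays, against 9.68% of the 11373 genes above the filter. This grouping of arrays was chosen after the values were seen, and 1 array of each genotype falls in it. Without wild type 1, homozygote 1 and heterozygote 2 were the highest 2 of 5 arrays for 6 of the 9 genes, against 18% of all genes. Wild type 1 was the highest array for 7 of the 9 genes (24.3% of all genes), and heterozygote 1 the lowest for 6 (16.4% of all genes). These counts include Dusp4 and Dusp5, whose variation was used to choose the genes, so they are a description. Without these 2, homozygote 1, heterozygote 2 and wild type 1 were the 3 highest arrays for 4 of 7 genes, wild type 1 was the highest for 5 and heterozygote 1 the lowest for 5. Over all genes above the filter, wild type 1 was also the array that was most often lowest (3021 of 11373). It was the lowest for 0 of the 9 members. The median share of the sum of squares between genotypes was 16.5% over the 9 genes and 34.1% over all genes above the filter, and it ran from 2.15% for Dusp5 to 56.9% for Spred1. The share of Spred1 depends on the probe set, since other passing ones had as little as 2.83% and as much as 86.2%.

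Cell type markers were set beside these orders. Of the marker lists examined, only that of epithelial cells had its highest summed deposited intensities on homozygote 1 (184.2), heterozygote 2 (190.5) and wild type 1 (228.6). The sums were 118.1 in homozygote 2, 152.2 in heterozygote 1 and 134.5 in wild type 2, and 4 of its 7 genes (Cdh1, Krt14, Krt5 and Cldn4) were below the filter. These sums are of values before quantile normalization. After it, 1 of the 3 epithelial genes above the filter had these 3 arrays highest. With each gene centred on its own mean, the median of the 3 was -0.01 in heterozygote 2, below 0.18 in wild type 2. Wild type 1, the array with the highest Dusp4, had the lowest fibroblast and macrophage sums. Fibroblast markers summed to 80217 and 77670 in homozygotes, 80077 and 86682 in heterozygotes, against 60460 and 71242 in wild type. Macrophage markers, with 12 of 14 above the filter and Itgam and Aif1 below it, summed to 13707 and 7051 in homozygotes, 5099 and 5243 in heterozygotes, against 3028 and 6425 in wild type. Skeletal muscle markers, with 3 of 8 above the filter and the muscle regulators Myod1, Myog and Myf5 below it, summed to 256.8 and 1026 in homozygotes, 231.7 and 526.1 in heterozygotes, against 3512 and 635.6 in wild type. The part of these cell types in the results was not tested.

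The comparison stated in the study's design sets homozygotes against both other genotypes. For the 7 feedback genes other than Dusp4 and Dusp5, limma called 0 at an adjusted p under 0.05, as it did 0% of the 22519 probe sets tested, and 0 of the 7 had an unadjusted p under 0.05, where 2.49% of all tested probe sets did. The limma adjusted p was 1 for each. Spry4 had the smallest unadjusted p, with 5.57 ± 0.44 in homozygotes, 5.84 ± 0.29 in heterozygotes, against 6.21 ± 0.49 in wild type (log2 intensity, SD, n = 2). Its difference of -0.45 (SE 0.31) had a 95% interval of -1.19 to 0.29, and Spry4's other passing probe set gave -0.10. The difference was -0.14 without homozygote 1 and -0.76 without homozygote 2, and it was -0.28 without wild type 1. For Dusp6 the difference was 0.19 (95% interval -0.85 to 1.24), and for Dusp1 the interval ran from -1.62 to 1.45, which spans a 2-fold change in either direction. Spred1 had the narrowest interval, from -0.38 to 0.57. Dusp4 differed by -0.12 (SE 0.67) and Dusp5 by 0.35 (SE 1.57), given with no test. Single arrays turned both directions, since the difference of Dusp4 was 0.46 without wild type 1 and -0.70 without wild type 2, and that of Dusp5 was 1.61 without wild type 1 and -0.90 without wild type 2. With embryo sex as a covariate, a fit whose sex term rests on the wild-type pair, the difference was 1.47 for Dusp1 and 4.51 for Dusp5. No member had both homozygote arrays beyond the other 4, where 3.27% of tested probe sets had both above and 4.02% had both below.

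Pairwise comparisons likewise gave 0 calls among the 7 genes, at the adjusted and at the unadjusted threshold, with 1 probe set per gene. Among their other passing probe sets, the dimmer Spred1 probe set with the difference of 0.82 between heterozygotes and wild type had a limma unadjusted p of 0.0152 there (adjusted p = 0.838), and 0.0330 for homozygotes against wild type (difference 0.67, adjusted p = 0.973). Homozygotes against wild type had limma adjusted p-values from 0.973 to 0.996, and 0% of all probe sets were called (3.8% at an unadjusted p under 0.05). Between these genotypes Spry4 differed by -0.64 (SE 0.35) and Spry2 by -0.35 (SE 0.37). Both homozygote arrays lay above both wild-type arrays for 1 member, Spred1 (0.23, SE 0.23), as they did for 13.3% of tested probe sets, and below for 0 members (14.9% of tested probe sets). Homozygotes against heterozygotes had an adjusted p of 1 throughout, with 0% of all probe sets called (2.17% unadjusted), and Dusp6 had the largest difference of the 7, at 0.42 (SE 0.50). No member had both homozygote arrays above (12% of tested probe sets) or below (12.8%) both heterozygote arrays. Heterozygotes against wild type had adjusted p-values from 0.850 to 0.939, with 0% of all probe sets called (5.26% unadjusted). There Spry2 differed by -0.49 (SE 0.37) and Dusp1 by -0.50 (SE 0.73). Spred1 was higher on both heterozygote arrays (0.27, SE 0.23), as were 17.9% of tested probe sets. Dusp4 was lower on both heterozygote arrays by a gap of under 0.01 between heterozygote 2 and wild type 2, an order that the deposited intensities of these arrays (71.7 and 56.5) do not show. Of tested probe sets, 19.3% were lower on both. These comparisons share arrays, so their values are not independent of each other.

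**Figure D3:**
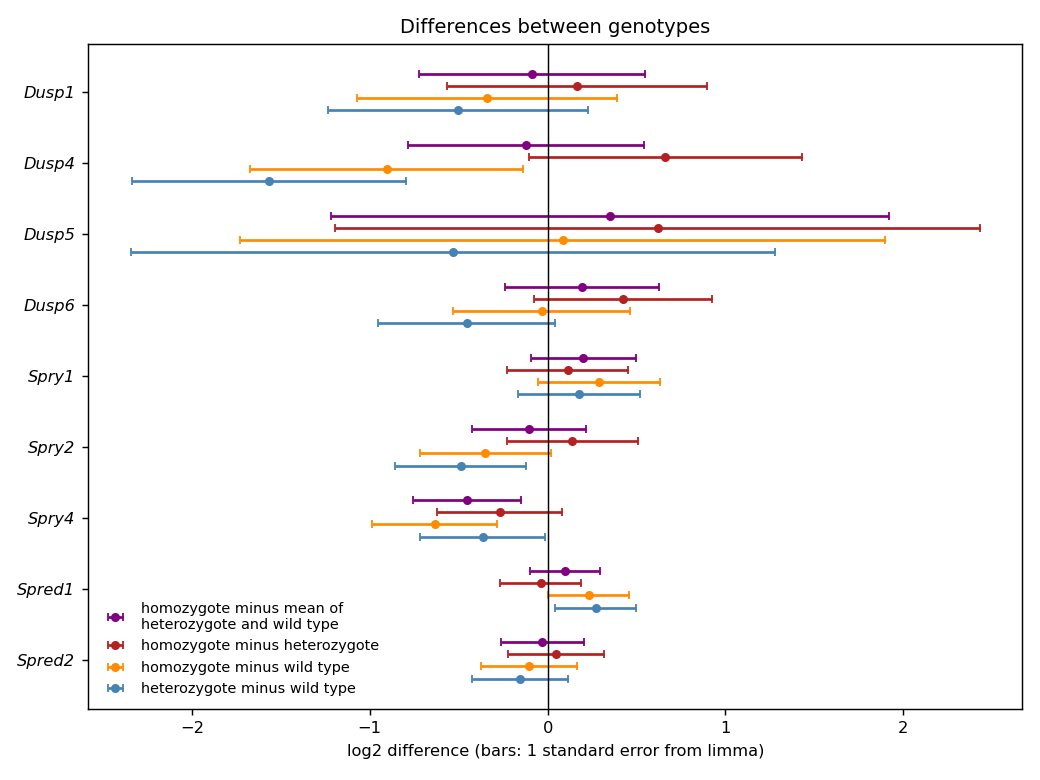
Log2 differences between genotypes (horizontal axis) for the 9 feedback genes, with bars of 1 standard error from limma over 2 arrays per genotype. The bars of Dusp5 are the widest (SE 1.57 for homozygotes against both other genotypes) and those of Spred1 the narrowest (SE 0.20).

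Genes nearest to Dusp4 and Dusp5 were sought among the 11372 other genes above the filter, by the root mean square difference of log2 levels over the 6 arrays after each gene was centred on its own mean. Nearest to Dusp4 were 1700009N14Rik (0.14), Plaur (0.17), Tmcc3 (0.18), H3c11 (0.19) and Mcpt8 (0.22). Plaur encodes the urokinase receptor, and it lay at 6.90 and 7.50 in homozygotes, 6.26 and 7.32 in heterozygotes, against 9.20 and 6.99 in wild type, with wild type 1 alone high. Dusp5 had less close neighbours, namely Nr4a1 (0.76), Ptgs2 (1.01), Tcim (1.02), Edn1 (1.04) and Errfi1 (1.05). The distance is not scaled for a gene's own range, which was larger for Dusp5 (5.00) than for Dusp4 (3.13). Nr4a1, an immediate early nuclear receptor, lay at 9.75 and 6.88 in homozygotes, 6.72 and 9.86 in heterozygotes, against 9.55 and 6.81 in wild type. It was high on the 3 arrays on which Dusp5 was high. Dusp1 ranked as neighbour 8 of Dusp5 (1.15), and Dusp6 as neighbour 65 (1.38), whereas Dusp4 was at place 110 (1.45).

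**Figure D4:**
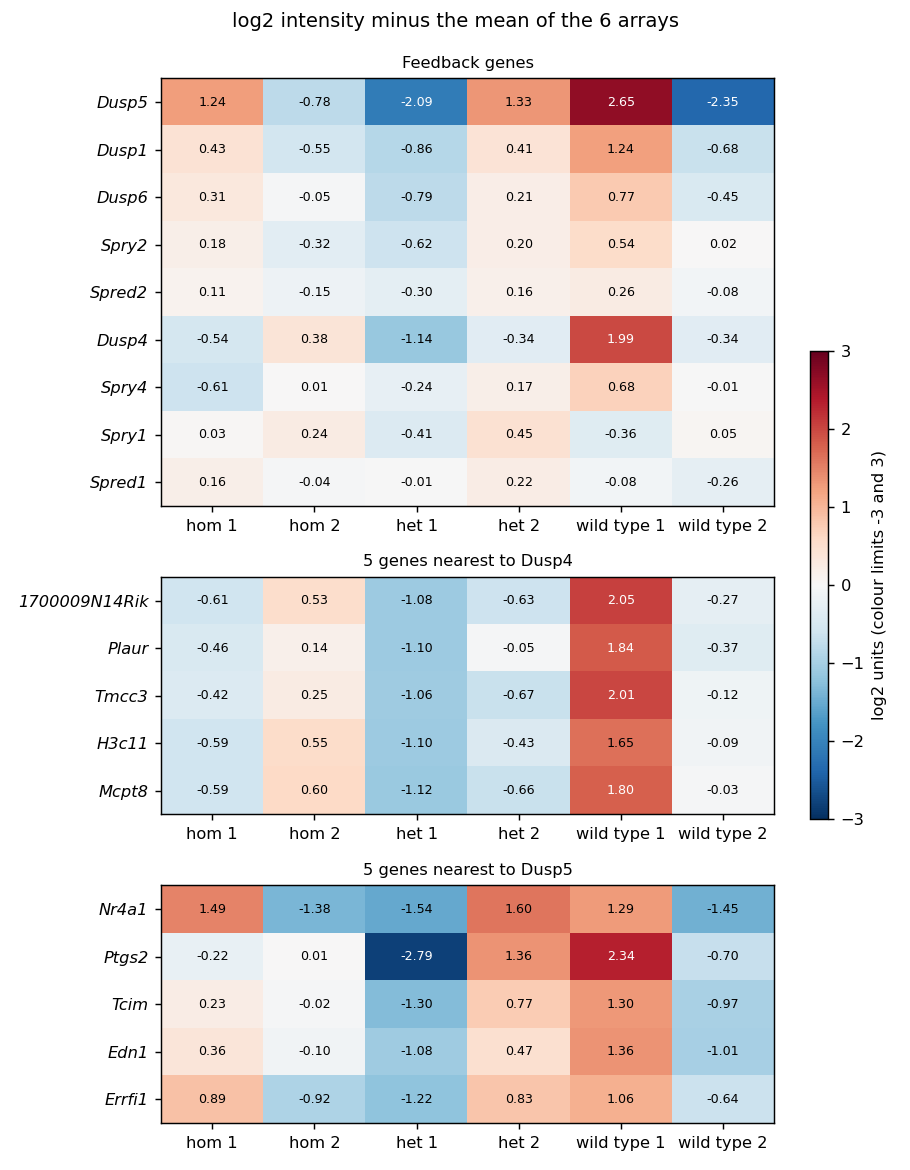
Log2 intensity minus the mean of the 6 arrays for the 9 feedback genes and the 5 genes nearest to Dusp4 and to Dusp5, by array (hom homozygote, het heterozygote). Red is above and blue below the mean. Dusp5, Dusp1, Dusp6, Spry2 and Spred2 are red on homozygote 1, heterozygote 2 and wild type 1, and the genes nearest to Dusp4 are strongly red on wild type 1 alone.

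Genes known as ERK targets were examined on the same arrays. Of the 32 on the list, 26 were above the filter, and limma called 0 in homozygotes against both other genotypes, with a median difference of -0.15 beside -0.01 over all genes. After each gene was centred on its own mean, their median level was -0.08 and -0.22 in homozygotes, -0.56 and 0.27 in heterozygotes, against 0.51 and -0.21 in wild type. For the 9 feedback genes the same medians were 0.16 and -0.05 in homozygotes, -0.62 and 0.21 in heterozygotes, against 0.68 and -0.26 in wild type, so heterozygote 1 was lowest and wild type 1 highest in both lists. Homozygote 1, heterozygote 2 and wild type 1 were the 3 highest arrays for 11 of the 26 (42.3%, against 9.68% of all genes), which were Fos, Jun, Junb, Egr1, Egr2, Egr3, Ier2, Ier3, Ier5, Mcl1 and Srf. Without homozygote 1 the count was 16, over the 2 high arrays left (14.8% of all genes).

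Among immediate early transcription factors, Fos and Egr1 had another highest array than Dusp5. Fos, a subunit of AP-1, lay at 10.55 and 7.58 in homozygotes, 8.14 and 9.81 in heterozygotes, against 8.97 and 7.76 in wild type. Egr1, named after its values were seen, lay at 12.48 and 10.10 in homozygotes, 10.71 and 12.28 in heterozygotes, against 11.61 and 10.38 in wild type. Homozygote 1 was highest for both, and wild type 1 was the third. Ptgs2, the inducible cyclooxygenase, lay at 9.21 and 9.43 in homozygotes, 6.63 and 10.78 in heterozygotes, against 11.76 and 8.72 in wild type, a range of 5.13. Phlda1, a growth-factor-induced gene, was at 10.77 in wild type 1 and between 8.49 and 9.14 elsewhere. Etv5, an ETS factor induced by FGF signalling, had a range of only 0.54 (6.94 and 6.88 in homozygotes, 7.32 and 7.05 in heterozygotes, 7.41 and 7.0 in wild type). Ccnd1, or cyclin D1, was highest in heterozygote 1, at 12.13, the array that was lowest for 6 of the 9 feedback genes.

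Of 10 other dual specificity phosphatases on the list, 8 passed the filter with a median range of 0.59, beside 0.72 for all genes, and 0 were called. The median range of the feedback genes was 1.29, or 1.16 without Dusp4 and Dusp5, which were chosen in part for their variation. It was larger for the 26 ERK target genes, at 1.69, and was 1.13 for 24 receptors and ligands upstream of ERK. Dusp14 lay at 6.72 and 7.60 in homozygotes, 6.88 and 7.09 in heterozygotes, against 8.67 and 7.17 in wild type, and Dusp10, which acts on JNK and p38, was at 7.19 in wild type 1 and between 5.36 and 6.03 elsewhere. Both had the high wild type 1 of Dusp4. For Dusp10 the next highest arrays were heterozygote 2 (6.03) and homozygote 1 (6.02), so its 3 highest arrays were those of Dusp5. That held for 1 of the 8 phosphatases (12.5%, against 9.68% of all genes). Dusp8 differed by 0.26 (SE 0.29) and Dusp16 by -0.16 (SE 0.18) between homozygotes and both other genotypes.

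Of 16 other feedback inhibitors of receptor signalling, 15 passed the filter, 0 were called, and the median range was 0.90. Errfi1, an inhibitor of EGF receptor kinases, lay at 10.24 and 8.42 in homozygotes, 8.13 and 10.18 in heterozygotes, against 10.41 and 8.71 in wild type. Its 3 high arrays were those of Dusp5. Il17rd, also called Sef, an inhibitor of FGF signalling, had the opposite extreme, with 6.59 in wild type 1 and between 7.72 and 8.37 elsewhere (difference 0.61, SE 0.36). Spred3 differed by -0.43 (SE 0.37) and the Ras inactivator Nf1 by -0.27 (SE 0.21).

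Genes of the kinase relay itself had a median range below that of all genes. Of 24 genes on the Ras-ERK list, 17 were measured here and all of these passed the filter, with a median range of 0.64 beside 0.72, and 0 were called. The Ras relative Rras2 had the largest range of the list (2.52), at 8.46 and 9.31 in homozygotes, 7.87 and 8.74 in heterozygotes, against 10.40 and 8.87 in wild type. Among the others, Rps6ka3, an ERK-activated kinase, differed by 0.31 (SE 0.23), the Raf scaffold Shoc2 by -0.30 (SE 0.31) and Braf by 0.20 (SE 0.24). Of 11 p38 and JNK pathway genes, 9 passed the filter with a median range of 0.56, and 0 were called. Mapk11, a p38 kinase, differed by -0.64 (SE 0.19, limma unadjusted p = 0.0124 and adjusted p = 1), the p38 activator Map2k3 by -0.28 (SE 0.25) and the p38 substrate Mapkapk2 by -0.24 (SE 0.24).

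**Figure D5:**
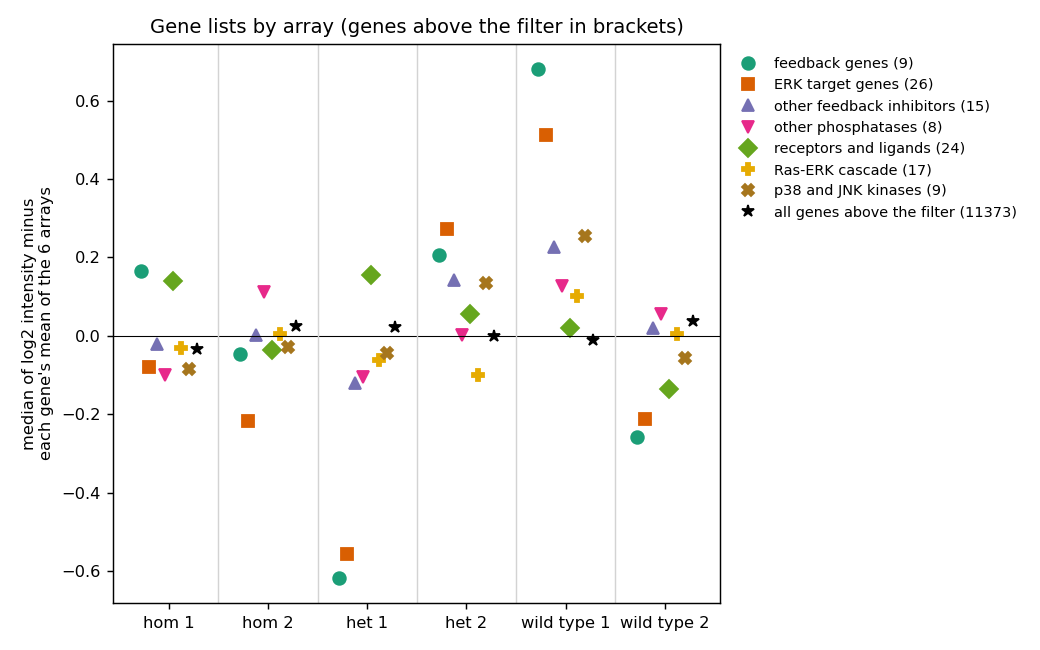
Median over each gene list of log2 intensity minus the gene's mean of the 6 arrays (vertical axis), by array (hom homozygote, het heterozygote). The feedback genes run from -0.62 in heterozygote 1 to 0.68 in wild type 1 and the ERK targets from -0.56 to 0.51 on the same arrays, while the median of all 11373 genes stays between -0.03 and 0.04.

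Receptors and ligands upstream of ERK had 24 of 27 genes above the filter, with 0 called and a median share of the sum of squares between genotypes of 55.3%, above that of the feedback genes (16.5%). Fgf5 had the smallest p, at 6.87 and 6.95 in homozygotes, 5.79 and 5.74 in heterozygotes, against 5.51 and 5.29 in wild type (difference 1.33, SE 0.19, limma adjusted p = 1). The 2 genotype groups did not overlap for Fgf5, while all feedback genes overlapped in this comparison. Hgf differed by 0.74 (SE 0.33) and Nrg1 by -0.60 (SE 0.25), each with a limma adjusted p of 1. Pdgfra, a receptor for platelet-derived growth factors in fibroblasts, lay at 10.44 and 8.32 in homozygotes, 8.84 and 9.38 in heterozygotes, against 6.80 and 8.45 in wild type. Igf1 was also lowest in wild type 1, at 7.04, and between 9.44 and 10.83 elsewhere, while Dusp4 was highest there.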

How the data were processed

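Total RNA (2 µg per array) was hybridized to Affymetrix mouse arrays, per the labels' protocols. The deposited values were linear intensities, 1 per probe set, and how the authors summarized and scaled the probes is not stated in the labels. Since array medians spanned 0.29 log2 units, log2(intensity + 1.78) values were quantile normalized, where 1.78 is the 10th percentile of all intensities. After removal of 64 control probe sets, the upper 50% by mean (22519) were tested with limma 3.58.1 in R 4.3.3, with a mean per genotype, all 6 arrays in 1 fit and Benjamini-Hochberg adjustment over all of them at 0.05. The fit was tested on simulated data, with changes far larger than those of the members and the variation of each probe set capped at the median. That test does not show how well the fit finds changes like those of the members. Probe sets were named from the platform annotation, and old symbols were replaced by way of Entrez identifiers in a GRCm38.p6 table, and those with several symbols were left out. Members, lists and tests were chosen with earlier results of these data known. List genes named were the 3 with the smallest p and the 2 with the largest range. Alternatives changed the normalization, constant, filter, covariates and arrays. Some genes of the lists were not analysed here.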

Additional observations from a re-analysis of the deposited data

How the results depend on the processing

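Calls and directions were recomputed with other normalizations, constants, filters, probe set choices, an embryo sex covariate, a replicate block and each array left out. For Dusp4 and Dusp5, a log2 difference counted as unchanged if it moved by less than the replicate spread, whatever its direction. For the other genes it counted as unchanged if it kept direction and side of the threshold. Of the log2 differences of the 9 genes under these settings, 504 were unchanged by these rules. Among the genes other than Dusp4 and Dusp5, 52 turned direction. For Dusp4 and Dusp5, 11 moved by more than the replicate spread. Probe sets called rose above 0 in 6 combinations of a setting and a comparison. For homozygotes against both other genotypes, leaving out arrays gave 0 to 2 (2 without wild type 2). For homozygotes against heterozygotes it gave 0 to 3 (3 without wild type 1, 2 without wild type 2), and 2 in a fit on those arrays alone. For heterozygotes against wild type it gave 0 to 3 (3 without wild type 1), and the sex covariate gave 1. Leaving out arrays gave a Dusp4 range of 1.51 to 3.15. With the sex covariate, homozygotes minus the mean of both other genotypes was 1.47 for Dusp1, -0.12 for Spry1, 0.29 for Spry2, 0.27 for Spry4 and 0.24 for Spred2, all turned in direction. Homozygotes minus wild type turned to 0.54 for Dusp1, 0.55 for Dusp6 and 0.042 for Spred2, and homozygotes minus heterozygotes to -0.34 for Spry1, 0.77 for Spry4 and 0.15 for Spred1. The last comparison also turned with the mean of all probe sets of a gene (Spry2 -0.012, Spred2 -0.0042) and with no normalization (Spred2 -0.063). The causes were not tested.

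Over arrays left out in turn, homozygotes minus the mean of both other genotypes ran from -0.58 to 0.39 for Dusp1, -0.70 to 0.46 for Dusp4, -0.90 to 1.61 for Dusp5, -0.11 to 0.49 for Dusp6, -0.012 to 0.42 for Spry1, -0.36 to 0.14 for Spry2, -0.76 to -0.14 for Spry4, -0.0039 to 0.19 for Spred1 and -0.16 to 0.10 for Spred2. Homozygotes minus wild type ran from -1.29 to 0.61 for Dusp1, -0.64 to 0.57 for Dusp6 and -0.27 to 0.061 for Spred2. Homozygotes minus heterozygotes ran from -0.47 to 0.80 for Dusp1, -0.078 to 0.92 for Dusp6, -0.31 to 0.54 for Spry1, -0.27 to 0.55 for Spry2, -0.58 to 0.040 for Spry4, -0.16 to 0.081 for Spred1 and -0.18 to 0.28 for Spred2. Heterozygotes minus wild type ran from -1.46 to 0.45 for Dusp1, -1.07 to 0.15 for Dusp6, -0.25 to 0.60 for Spry1 and -0.39 to 0.075 for Spred2. A genotype left with 1 array was assumed to vary like the others.

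The replicate numbers do not pair the samples, which are different embryos (correlations of same-numbered deviations -0.14, -0.14 and -0.36). The replicate block is balanced over the genotypes, so it could not change the 36 member differences, which count as unchanged above. It gave 0 calls in each comparison. The grouping of homozygote 1, heterozygote 2 and wild type 1, and the settings tried on it, were chosen after seeing the data. Under those settings it held for 5 to 6 of the 9 genes and 9 to 16 of the 26 ERK targets. The share of all genes with it also moved, from 8.24% to 18%. Where 1 of these 3 arrays was left out, only the other 2 had to be the highest of 5. Dim signals limit Dusp5, which lay below the array median on 3 of 6 arrays.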

Other observations

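Other marker groups also differed between the cultures. Neural crest and Schwann markers summed to 436.4 and 337.2 in homozygotes, 1275 and 2182 in heterozygotes, against 2404 and 1624 in wild type (deposited intensity), with wild type 1 highest and both homozygotes lowest. Chondrocyte and tendon markers summed to 1080 and 895.8 in homozygotes, 815.1 and 838.6 in heterozygotes, against 447.3 and 524.9 in wild type. A second Bcar1 probe set was also highest in wild type 1, at 8.21, and between 7.16 and 7.58 elsewhere (log2 intensity).

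Wild type 1 was the highest array for 16 of 26 ERK target genes, 7 of 15 other feedback inhibitors and 4 of 8 other dual specificity phosphatases. It was also the highest for 5 of 9 p38 and JNK pathway genes, 7 of 17 Ras-ERK genes and 8 of 24 receptors and ligands. Of all genes above the filter, 24.3% were highest there. Wild type 1 was also the lowest array for 3021 of these 11373 genes, more than any other array, and for 9 of the 24 receptors and ligands. Arrays of 1 genotype differed by a median of 0.32 in homozygotes, by 0.28 in heterozygotes and by 0.34 in wild type (absolute log2 difference over tested probe sets).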
